A study of Rattus norvegicus with 8 samples.

Results

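The genes described are the cadherins, protocadherins and catenins that the array could name in the rat hippocampus. They were taken by symbol, as all non-control probes whose RefSeq accession maps to a gene named Pcdh, Ctnna, Ctnnb or Ctnnd, or Cdh and a number, with the endothelial Cdh5 left out. The rule found 50 probes for 37 genes, of 41012 probes in all, 15184 of which could be named (12206 genes). The data came from 8 male Wistar rats with no stated genetic change, 1 hippocampal RNA sample and 1 Agilent 1-colour array (Cy3) per rat. The 4 control rats ate the standard CE-2 feed, and the 4 CCH rats ate CE-2 with 0.1% coral calcium hydride (CCH), a preparation of coral calcium that carries hydrogen. Feeding started at the age of 6 weeks and the hippocampi were taken at 8 weeks. Titles and treatment labels set the groups. The free-text descriptions do not match these, since they name a brain lesion and injected drugs. All control arrays lay on slide 1 and all CCH arrays on slide 2, each with its own scan, so diet, slide and scan cannot be told apart in any result.

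Cadherins are membrane proteins that bind their own kind on a neighbouring cell in the presence of extracellular calcium. Their tails hold beta-catenin and p120-catenin, and alpha-catenin links this complex to actin. Beta-catenin also acts in the nucleus as the coactivator of Wnt signalling. The clustered protocadherins lie in alpha, beta and gamma gene clusters, and each neuron uses its own combination of them, which lets it tell its own branches from those of other cells. Non-clustered protocadherins work in axon growth and in the making and removal of synapses. In the hippocampus, N-cadherin (Cdh2) and the catenins sit at excitatory synapses.

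RefSeq promoter windows, 250 bases before to 50 bases after the gene start in build GRCr8, were found for 31 of the 37 genes. The windows of Pcdh7, the only gene below that passed the test, and of Pcdh8 and Pcdh17, related non-clustered protocadherins that did not, are shown so that they can be compared. They lie at chr14:57113473-57113772 (minus strand), chr15:61612041-61612340 (minus strand) and chr15:66632892-66633191 (plus strand). Each reads 5′ to 3′ along its gene, with the CCAAT box in capitals, which in Pcdh8 lies on the other strand and so reads ATTGG.
Pcdh7: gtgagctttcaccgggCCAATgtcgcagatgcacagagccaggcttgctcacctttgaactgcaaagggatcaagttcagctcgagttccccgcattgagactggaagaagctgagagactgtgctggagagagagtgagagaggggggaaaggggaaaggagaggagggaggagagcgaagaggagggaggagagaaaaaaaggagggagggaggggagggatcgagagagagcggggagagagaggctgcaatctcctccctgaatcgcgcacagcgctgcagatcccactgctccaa
Pcdh8: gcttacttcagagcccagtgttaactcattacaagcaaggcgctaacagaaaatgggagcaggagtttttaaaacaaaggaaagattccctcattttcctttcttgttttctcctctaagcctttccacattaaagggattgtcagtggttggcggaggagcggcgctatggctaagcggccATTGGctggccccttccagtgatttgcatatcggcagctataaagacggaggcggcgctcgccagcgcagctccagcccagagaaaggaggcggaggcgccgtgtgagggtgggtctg
Pcdh17: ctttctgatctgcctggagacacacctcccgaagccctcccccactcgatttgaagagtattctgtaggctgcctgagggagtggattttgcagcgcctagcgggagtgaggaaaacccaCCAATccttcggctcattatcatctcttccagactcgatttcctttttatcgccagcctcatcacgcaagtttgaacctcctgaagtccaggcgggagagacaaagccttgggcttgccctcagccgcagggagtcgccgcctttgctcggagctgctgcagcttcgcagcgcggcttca
The CCAAT box was present in all 4 windows of the non-clustered protocadherins, in 17 of the 31 member windows (54.8%) and in 37.5% of all 33469 windows. The window of Pcdh7 held 10 CpG dinucleotides, that of Pcdh8 14 and that of Pcdh17 16. The core CGCT, part of a conserved element upstream of clustered protocadherin genes, was found in 29 of the 31 member windows (93.5%) and in 60.9% of all windows. It was in 15 of 15 windows of clustered genes and in 4 of 4 of non-clustered protocadherins. A core this short, also common in all windows, cannot show whether the longer element sets the clustered genes apart. The E-box CACCTG, bound by repressors of E-cadherin, was found in 4 of the 31 windows and in 18.8% of all. The E-cadherin gene Cdh1 itself had no window and was not searched, since the only type I cadherin window was that of Cdh15. The TCF core CTTTGA was found in 7 of the 31 windows and in 16.1% of all, and the TATA box TATAAA in 6 of the 31 and in 14.2% of all. All 5 motifs were searched on both strands, and no motif is part of another. These matches describe letters in a window and no site was tested.

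All values below are log2 levels, the log2 of a probe's processed signal minus the 75th percentile of its array, so a level of 0 lies at that percentile. Levels are compared between rats for 1 probe. Between probes they served only to choose the brightest probe of a gene for marker scores and partner lists. A difference is the CCH mean minus the control mean on this log2 scale. Of the 50 member probes 47 passed the filter on dim signal (well above background on 4 or more arrays) and were tested, and 43 of these passed on all 8 arrays. The probes left out were both probes of Cdh17 and 1 probe of Cdh16.

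The arrays differed in the levels of cell type markers. Hippocampal markers Slc17a7 and Prox1 were well above background on all 8 arrays, as were the choroid plexus markers Ttr, Sostdc1 and Kcnj13. A marker score is the mean log2 level of a list's markers on an array, each centred over the 8 arrays. The choroid plexus score of 11 markers spanned -0.62 to 2.05 among control arrays and -3.68 to 1.55 among CCH arrays, with CCH replicates 2 and 4 low. Scores of oligodendrocytes (10 of 10 markers with a positive difference, -0.32 to -0.06 in the controls and 0.09 to 0.35 in CCH) and of their precursors (6 of 7; -0.17 to -0.08 and 0.01 to 0.23) did not overlap. The microglia score (8 of 10 negative; 0.07 to 0.21 and -0.24 to -0.03) did not overlap either. Its largest difference was that of Fcgr2b, at -1.23 (limma adjusted p = 0.0399), the only called marker of that list. Itgam and Cx3cr1 went the other way, at 0.28 and 0.16. A microglia score without Fcgr2b was not computed, so the separation may rest on that gene. The oligodendrocyte, precursor and microglia scores each gave a two-sided exact permutation p of 0.0286, the smallest that 4 against 4 allows. Adjusted over 11 array measures, that exact permutation p was 0.105. The marker lists were chosen with earlier results of these data known, so this is no independent test. Among the precursor markers Bmp4 was at 0.78, while Pdgfra was at -0.16 and Cspg4 at 0.075. The part of these scores in the differences of Pcdh7, Cdh13 and Ctnnb1 was not tested. CCH replicate 1 was the highest or lowest CCH array for 38 of 47 members (80.9%), against 75.7% of all tested probes.

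Pcdh7 fell in CCH and was the only member that changed by the test. Over all 31617 tested probes, limma with Benjamini-Hochberg adjustment called 55 (0.174%), 24 higher (0.0759%) and 31 lower (0.098%). That count was 708 without CCH replicate 1 and 0 or 1 without any other single array. Of the 47 members 1 was called lower and 0 higher. At an unadjusted limma p under 0.05 there were 5 members, or 10.6%, against 15.4% of all tested probes. Of these 2 were higher in CCH and 3 lower, where all probes had 8.79% and 6.59%. The 4 CCH arrays did not overlap the 4 controls in 3 members (6.38%), against 11.3% of all tested probes. In 1 of them CCH lay above (all probes 6.59%) and in 2 below (all probes 4.7%). The shares at these weaker limits lay below those of all probes. The median difference of the members was -0.023, with 22 positive and 25 negative. Over all tested probes it was 0.027, with 17433 positive and 14184 negative. The median absolute difference was 0.11 in the members and 0.15 in all tested probes. In these bulk samples fewer cells of a type and less RNA per cell cannot be told apart.

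**Figure D1:**
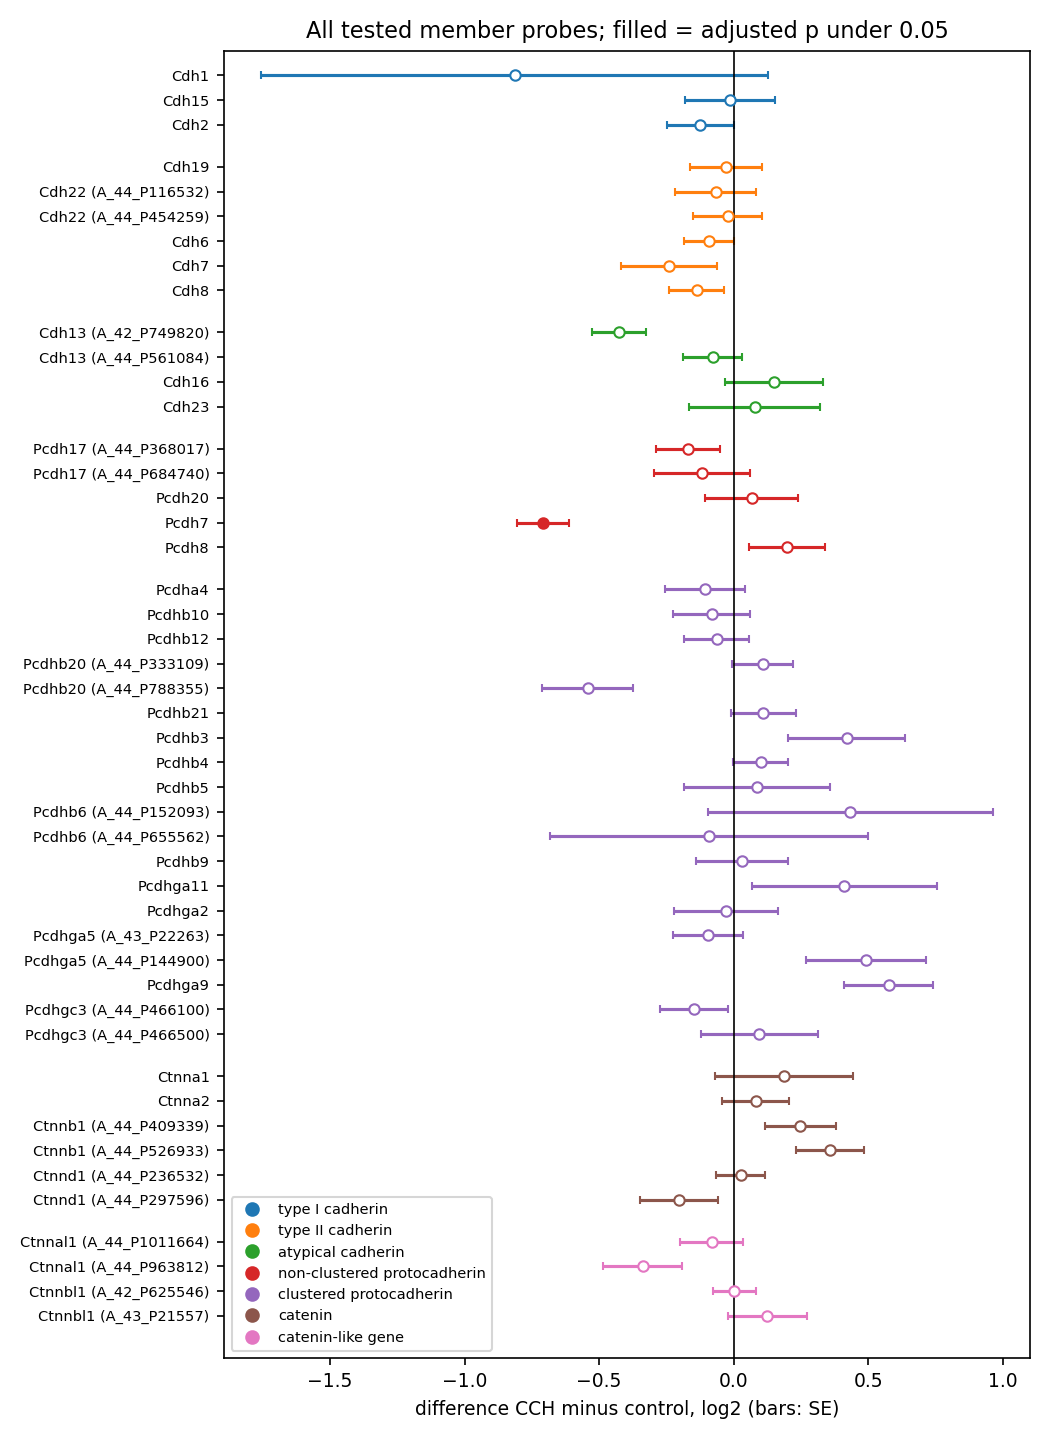
Difference CCH minus control in log2 (horizontal axis, bars give the SE) for each of the 47 tested member probes, coloured by role; a filled point has a limma adjusted p under 0.05. Only Pcdh7 is filled, at -0.71, and Cdh1 and both probes of Pcdhb6 have the widest bars.

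Pcdh7 encodes a non-clustered protocadherin of the delta type. Its probe stood at 1.54, 1.42, 1.27 and 1.43 on control replicates 1 to 4 and at 0.55, 0.81, 0.76 and 0.70 on CCH replicates 1 to 4. Every CCH array lay below every control array, and the spread within each group was small beside the gap. Means were 1.41 ± 0.11 (SD, n = 4) and 0.71 ± 0.11 (SD, n = 4), a 1.63-fold lower signal in CCH. The difference was -0.71 ± 0.10 (SE, limma adjusted p = 0.0453), rank 44 of 31617 by p, close to the threshold. It stayed between -0.76 and -0.62 under 20 alternatives, but the adjusted p rose above the threshold without any 1 array other than CCH replicate 1 (0.109 to 0.146). The call also ended with median scaling (0.0513), without the detection filter (0.0668), with a choroid plexus covariate (0.146) and without CCH replicates 2 and 4 together (0.314). A block for the replicate number ended it as well (0.172). The array holds 1 named probe for Pcdh7, so no second probe could be set beside it.

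The other non-clustered protocadherins gave no call. Pcdh17, which is found in corticobasal ganglia circuits and regulates synaptic vesicle assembly, had a probe at 0.87, 1.05, 0.56 and 0.98 in the controls and 0.76, 0.75, 0.67 and 0.60 in CCH. Its other probe stood at 3.39, 3.62, 3.21 and 3.69 in the controls and 2.88, 3.48, 3.47 and 3.61 in CCH. The groups overlapped on each, with differences of -0.17 ± 0.12 and -0.12 ± 0.18 (SE), the latter at 0.041 without CCH replicate 1. Pcdh8 (arcadlin), an activity-induced protocadherin that takes N-cadherin off the synapse surface, was at 1.46, 1.75, 1.35 and 1.77 in the controls and 1.66, 1.96, 1.57 and 1.94 in CCH. These values interleave, and the difference was 0.20 ± 0.14 (SE, limma adjusted p = 0.557). Pcdh20 was at -1.76, -1.64, -1.85 and -1.53 in the controls and -2.14, -1.39, -1.46 and -1.53 in CCH, a difference of 0.068 ± 0.17 (SE). Without CCH replicate 2 it was at -0.012 and with normexp background correction at -0.0077.

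**Figure D2:**
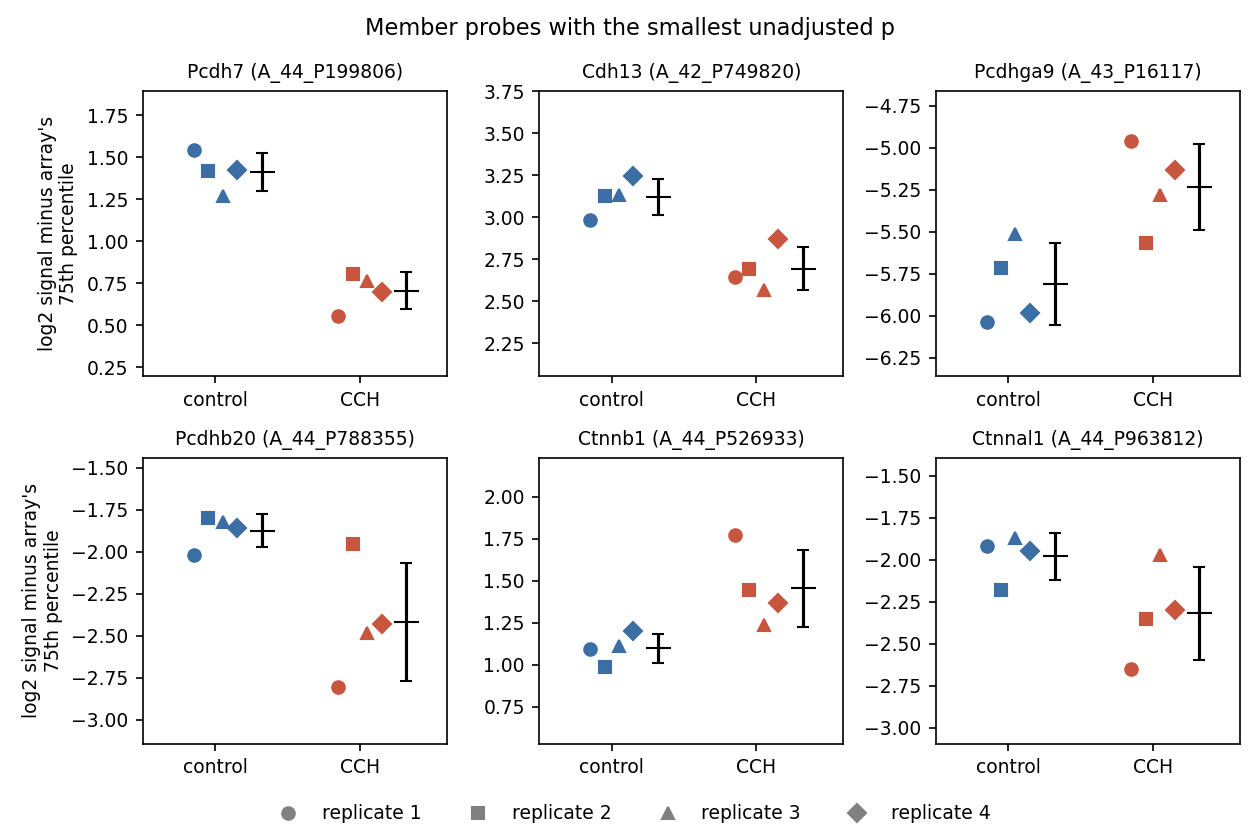
Log2 level (vertical axis, signal minus the array's 75th percentile) of the 6 member genes' probes with the smallest unadjusted p, for 4 control and 4 CCH arrays; symbols mark the replicate and black bars the mean and SD. Control and CCH arrays are separate for Pcdh7, for the Cdh13 probe and for the Ctnnb1 probe, and overlap for the other 3.

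Among the catenins, 5 of 6 tested probes had a positive difference, beside 17433 of all 31617 tested probes. No catenin probe was called by limma (1 at an unadjusted p under 0.05). Ctnnb1, the gene of beta-catenin, was measured by a pair of probes that moved together over the 8 arrays. On the first it stood at 1.10, 0.99, 1.11 and 1.20 in the controls and at 1.77, 1.45, 1.24 and 1.37 in CCH. All 4 CCH arrays were above all 4 controls there, with CCH replicate 1 highest. The difference was 0.36 ± 0.13 (SE, limma adjusted p = 0.230), and 0.25 at the lowest with 1 array left out. The second probe was at -2.12, -2.34, -2.29 and -2.23 in the controls and -1.64, -2.02, -2.18 and -2.14 in CCH. There the groups overlapped, and the difference was 0.25 ± 0.13 (SE, limma adjusted p = 0.422). Neither value passed the test, although the direction was positive on each probe in all 20 alternatives.

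Ctnna1, the alpha-catenin gene of most tissues, was at 1.95, 1.60, 1.96 and 1.61 in the controls and at 2.78, 1.77, 1.67 and 1.63 in CCH. CCH replicate 1 stood apart, and the difference of 0.19 ± 0.26 (SE) went to -0.086 without it. Ctnna2, the neuronal alpha-catenin gene, was at -1.27, -1.27, -1.46 and -1.14 in the controls and -1.36, -0.92, -1.32 and -1.23 in CCH, a difference of 0.081 ± 0.12 (SE; -0.015 without CCH replicate 2). Ctnnd1 encodes p120-catenin, which keeps cadherins at the cell surface. One of its probes was at -2.37, -2.69, -2.79 and -2.74 in the controls and -3.14, -2.66, -2.66 and -2.93 in CCH. It differed by -0.20 ± 0.15 (SE) and the other by 0.027 ± 0.091 (SE; -0.013 without CCH replicate 3), with overlap on both. Other genes share a catenin symbol by sequence likeness. Ctnnal1 (alpha-catulin) was at -1.92, -2.18, -1.87 and -1.95 in the controls and -2.65, -2.35, -1.97 and -2.30 in CCH on 1 probe. It differed there by -0.34 ± 0.15 (SE, limma adjusted p = 0.325) and on the other probe by -0.082 ± 0.12 (SE; 0.078 without CCH replicates 2 and 4). Ctnnbl1, a spliceosome-associated gene, was at 0.08, 0.00, -0.16 and -0.16 in the controls and 0.46, 0.04, -0.16 and -0.08 in CCH. Its differences were 0.13 ± 0.15 (SE; -0.0064 without CCH replicate 1) and 0.0028 ± 0.079 (SE).

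The classical cadherins gave no call by limma, and none of their 9 tested probes reached an unadjusted p under 0.05. All 9 differences were negative, 3 of type I and 6 of type II, from -0.81 to -0.014. Of all 31617 tested probes 14184 had a negative difference. The differences of Cdh15, of Cdh19 and of each Cdh22 probe turned positive, however, when 1 array was left out. N-cadherin (Cdh2), the main neuronal cadherin, stood at 1.09, 1.44, 1.12 and 1.42 in the controls and 0.91, 1.20, 1.26 and 1.20 in CCH. Only CCH replicate 1 lay below all controls, and the difference was -0.12 ± 0.12 (SE, limma adjusted p = 0.692). The neuronal type II cadherin Cdh8 was at -1.48, -1.16, -1.50 and -1.27 in the controls and -1.50, -1.39, -1.55 and -1.51 in CCH (difference -0.14 ± 0.10, SE). Cdh7 was at -3.05, -2.63, -2.91 and -2.36 in the controls and -3.20, -2.64, -3.04 and -3.04 in CCH (difference -0.24 ± 0.18, SE). Both overlapped between the groups. Cdh6 differed by -0.091 ± 0.093 (SE), Cdh19, a cadherin of Schwann cell precursors, by -0.028 ± 0.13 (SE), and the muscle cadherin Cdh15 by -0.014 ± 0.17 (SE). Cdh22, first described in the pituitary and brain, differed by -0.067 ± 0.15 and -0.023 ± 0.13 (SE) on its probes.

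Cdh1, the E-cadherin gene of epithelia that is also active in the leptomeninges, had the widest spread of the members within the controls. It stood at -1.56, -5.77, -2.04 and -4.99 on control replicates 1 to 4 and at -4.29, -3.68, -4.22 and -5.43 on CCH replicates 1 to 4. Control replicates 1 and 3 were high, and the other 6 arrays lay well below them. The control SD was 2.10, above that of 99.7% of tested probes, while the CCH SD was 0.74. The difference of -0.81 ± 0.94 (SE, limma adjusted p = 0.736) ran from -1.54 without control replicate 2 to -0.14 without control replicate 1. It was -0.30 without control replicate 3, -1.28 without control replicate 4 and -0.19 with a choroid plexus covariate. The score of 10 meningeal and fibroblast markers was 1.69, -1.53, 1.19 and -1.02 in the controls and 0.23, 0.29, 0.08 and -0.93 in CCH. The 4 controls had the same order in Cdh1 and in that score, while CCH replicates 1 and 3 changed places. Over the 8 arrays Pearson's r was 0.973 (two-sided exact permutation p = 0.000149; 0.00134 adjusted over the 9 marker lists set against Cdh1) and Spearman's rho 0.952 (p = 0.00114; adjusted 0.0100). Without the 2 arrays farthest from the median score r was 0.946. With the difference between the groups, and so between the slides, taken out, deviations from the group means gave r = 0.994 (exact permutation within groups p = 0.00347, adjusted over 9 lists 0.0156). That check was added after the data were seen. The endothelial and pericyte score had r = 0.854 (exact permutation p = 0.00672, adjusted 0.0303) and rho = 0.833, and r = 0.889 (exact permutation within groups adjusted p = 0.0898) on the deviations. The choroid plexus score had r = 0.471 (exact permutation p = 0.213) and rho = 0.714 (adjusted 0.104), with r = 0.801 without the 2 arrays farthest from its median. The astrocyte score ran the other way, with r = -0.81 (exact permutation p = 0.0175, adjusted 0.0524) and rho = -0.93 (adjusted 0.0100). So did the hippocampal neuron score, with r = -0.77 (exact permutation p = 0.0292, adjusted 0.0656) and rho = -0.74, but with r = -0.19 without the 2 arrays farthest from its median. On the deviations the astrocyte score had r = -0.79 (exact permutation within groups adjusted p = 0.0156, as for the meningeal score). The hippocampal neuron score had r = -0.81 there (exact permutation within groups adjusted p = 0.0573). Cdh1 thus moved with several scores over these arrays. Cdh1 was picked for this after its values were seen, and the part of meningeal RNA in its level was not tested further. The defining meningeal markers Dcn, Col1a1 and Slc13a3 were well above background on all 8 arrays.

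**Figure D3:**
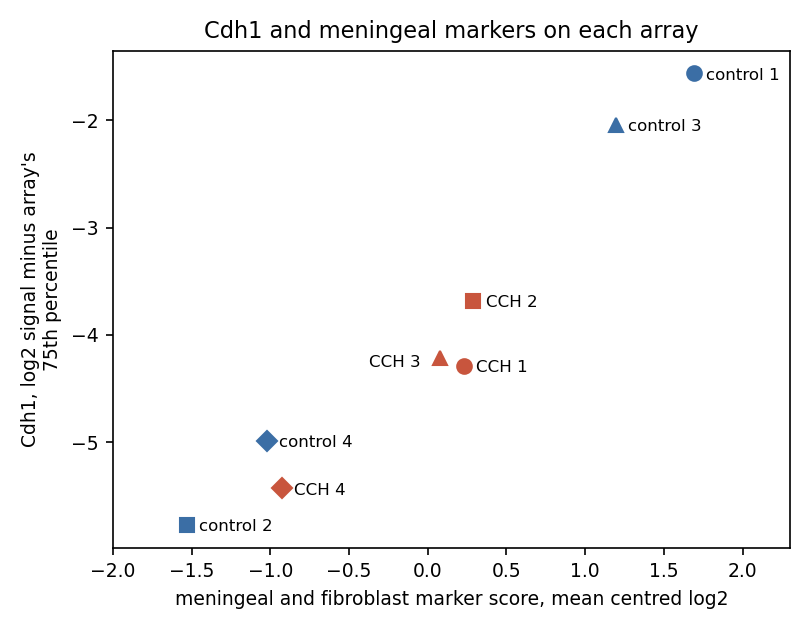
Cdh1 log2 level (vertical axis) against the mean centred log2 level of meningeal and fibroblast markers (horizontal axis), 1 point per array, blue for control and red for CCH. Control replicates 1 and 3 sit at the upper right and control replicates 2 and 4 with CCH replicate 4 at the lower left.

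The atypical cadherins gave no limma call, and 1 of their 4 tested probes reached an unadjusted p under 0.05. Cdh13 encodes T-cadherin, which is held to the membrane by a lipid anchor and lacks the catenin-binding tail. One probe was at 2.98, 3.13, 3.13 and 3.24 in the controls and at 2.65, 2.69, 2.57 and 2.87 in CCH. The groups did not overlap, and the difference was -0.43 ± 0.10 (SE, limma adjusted p = 0.104), or 1.34-fold lower. It was between -0.51 and -0.38 in all 20 alternatives, with a limma adjusted p of up to 0.353. It passed the threshold with array weights (limma adjusted p = 0.0480). That fit called 1339 probes and had 23.8% of all tested probes at an unadjusted p under 0.05. The other probe of Cdh13 was at 2.47, 2.49, 2.45 and 2.71 in the controls and 2.31, 2.45, 2.38 and 2.68 in CCH. There the groups overlapped and the difference was -0.077 ± 0.11 (SE), so the probes gave the same sign and unequal sizes. Cdh23, the tip-link cadherin of hair cells, differed by 0.078 ± 0.24 (SE; -0.094 without CCH replicate 1). Cdh16, a kidney cadherin, was at -5.06, -4.75, -4.52 and -4.36 in the controls and -4.29, -4.84, -4.62 and -4.35 in CCH on its tested probe (0.15 ± 0.18, SE; -0.13 with normexp). Its other probe was well above background on 0 control arrays and 1 CCH array. The intestinal Cdh17 was well above background on 2 control arrays and 1 CCH array on 1 probe and on none on the other, and CCH replicate 1 held its highest level, at -3.75 against -7.93, -7.99 and -8.31 in the other CCH arrays.

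Clustered protocadherins were measured by 19 probes of 15 genes, all of them tested and 15 well above background on all 8 arrays. None was called by limma. Of the 19 differences 11 were positive and 8 negative, beside 17433 and 14184 of all tested probes. One of each sign had an unadjusted p under 0.05, and the median was 0.085 beside 0.027 over all tested probes. With normexp background correction, which moved the median of all tested probes to -0.07, 10 of the 11 positive differences turned negative. Probe sequences were not used here, and binding of a probe to a neighbouring gene of the same cluster, whose sequences are alike, was not tested.

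In the gamma cluster Pcdhga9 was at -6.03, -5.72, -5.51 and -5.98 in the controls and -4.96, -5.57, -5.28 and -5.13 in CCH. CCH replicate 2 lay just below the highest control, and the difference was 0.58 ± 0.17 (SE, limma adjusted p = 0.162), but -0.070 with normexp. Pcdhga5 was at -6.30, -6.79, -7.04 and -6.16 in the controls and -6.39, -6.13, -6.09 and -5.70 in CCH on a probe well above background on 2 of 4 control arrays. It differed by 0.49 ± 0.22 (SE; -0.14 with normexp) there and by -0.095 ± 0.13 (SE) on its other probe, which was at -4.03, -4.06, -4.18 and -4.25 in the controls and -3.94, -4.20, -4.24 and -4.52 in CCH. The 2 Pcdhga5 probes thus gave opposite signs. Pcdhga11 was at -7.90, -7.49, -6.68 and -6.55 in the controls and -6.34, -7.30, -6.37 and -6.95 in CCH, well above background on 2 arrays of each group (0.41 ± 0.34, SE; -0.22 with normexp). Pcdhgc3 was at -2.99, -2.97, -3.30 and -3.16 in the controls and -3.04, -3.26, -3.51 and -3.21 in CCH. Its differences were -0.15 ± 0.13 and 0.095 ± 0.22 (SE) on its probes, the latter -0.10 without CCH replicate 1. Pcdhga2 differed by -0.028 ± 0.19 (SE), and Pcdha4, the only alpha-cluster member, by -0.11 ± 0.15 (SE).

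In the beta cluster, whose genes each consist of a single exon, 11 probes of 9 genes were tested. Pcdhb20 was at -2.02, -1.80, -1.82 and -1.86 in the controls and -2.81, -1.95, -2.48 and -2.43 in CCH on 1 probe. CCH replicate 2 lay within the controls and the other CCH arrays below them, a difference of -0.54 ± 0.17 (SE, limma adjusted p = 0.188). On the other probe Pcdhb20 was at -2.45, -2.31, -2.34 and -2.12 in the controls and -2.32, -1.98, -2.31 and -2.19 in CCH, a difference of 0.11 ± 0.11 (SE). This pair gave the widest gap between probes of 1 gene, 0.65 on the log2 scale. Pcdhb3 was at -4.92, -5.07, -4.67 and -4.56 in the controls and -4.18, -4.01, -4.99 and -4.36 in CCH, with CCH replicate 3 inside the control range (0.42 ± 0.22, SE; -0.036 with normexp). Pcdhb4 differed by 0.10 ± 0.10 (SE), from -3.40, -3.51, -3.41 and -3.23 in the controls to -3.44, -3.34, -3.14 and -3.22 in CCH. Pcdhb21 differed by 0.11 ± 0.12 (SE), from -4.09, -3.84, -4.26 and -3.95 to -3.84, -3.83, -4.13 and -3.90. The groups overlapped in both, and with normexp they were at -0.042 and -0.081.

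Pcdhb6 varied widely between rats within each group on both probes. The first was at -6.62, -5.52, -6.48 and -8.11 in the controls and -5.84, -7.18, -5.88 and -6.10 in CCH, and was well above background on 2 control and 3 CCH arrays. The second was at -5.76, -4.89, -5.67 and -6.93 in the controls and -4.45, -6.33, -5.77 and -7.07 in CCH. Control replicate 2 was the highest and control replicate 4 the lowest control on each. The differences were 0.43 ± 0.53 and -0.092 ± 0.59 (SE), so neither was distinguishable from 0 at this spread. Pcdhb5 spanned -1.89 to -0.88 among control arrays and -1.67 to -0.65 among CCH arrays (0.085 ± 0.27, SE; -0.11 without CCH replicate 1). Pcdhb9, Pcdhb10 and Pcdhb12 differed by 0.032 ± 0.17, -0.082 ± 0.14 and -0.063 ± 0.12 (SE), with overlap in each.

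**Figure D4:**
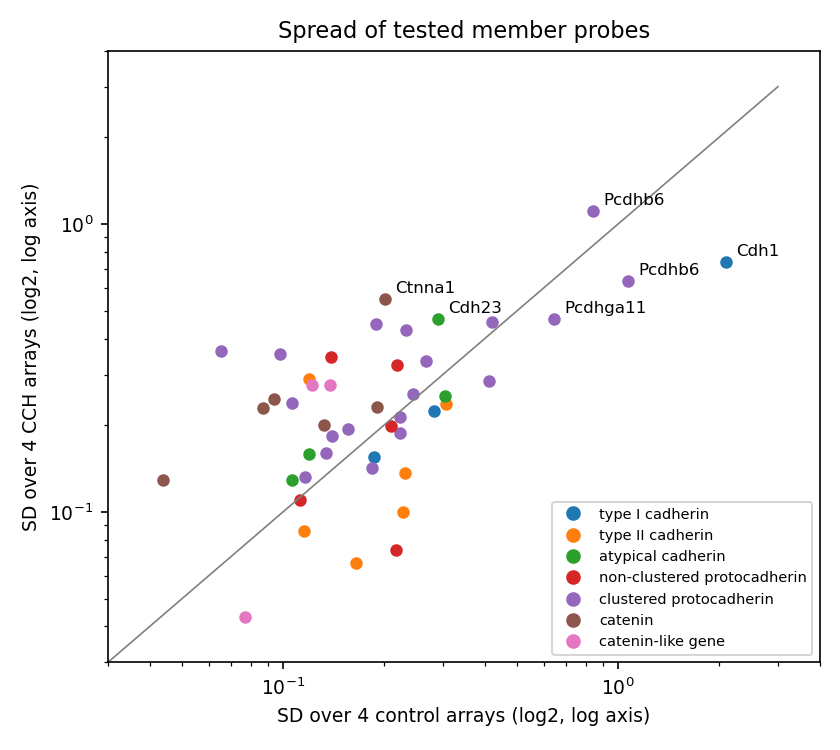
SD over the 4 CCH arrays (vertical, log axis) against SD over the 4 control arrays (horizontal, log axis) for tested member probes, coloured by role. The line marks equal spread. A Ctnnal1 probe with an SD of 0.014 in the controls and 0.22 in CCH falls outside the axes and is not drawn. Cdh1, at 2.10 and 0.74, and both Pcdhb6 probes have the widest spread.

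Where a gene had 2 tested probes, they often disagreed. The sign was the same for 6 of 11 such genes, Cdh13, Cdh22, Ctnnb1, Ctnnal1, Ctnnbl1 and Pcdh17, and opposite for Ctnnd1, Pcdhb6, Pcdhb20, Pcdhga5 and Pcdhgc3. The gap between probes was over 0.4 for Pcdhb6, Pcdhb20 and Pcdhga5, all clustered protocadherins. Over the 8 arrays the levels of the Ctnnb1 probes had a Pearson's r of 0.93 as a description of 1 gene, and those of Pcdhga5 one of -0.59.

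**Figure D5:**
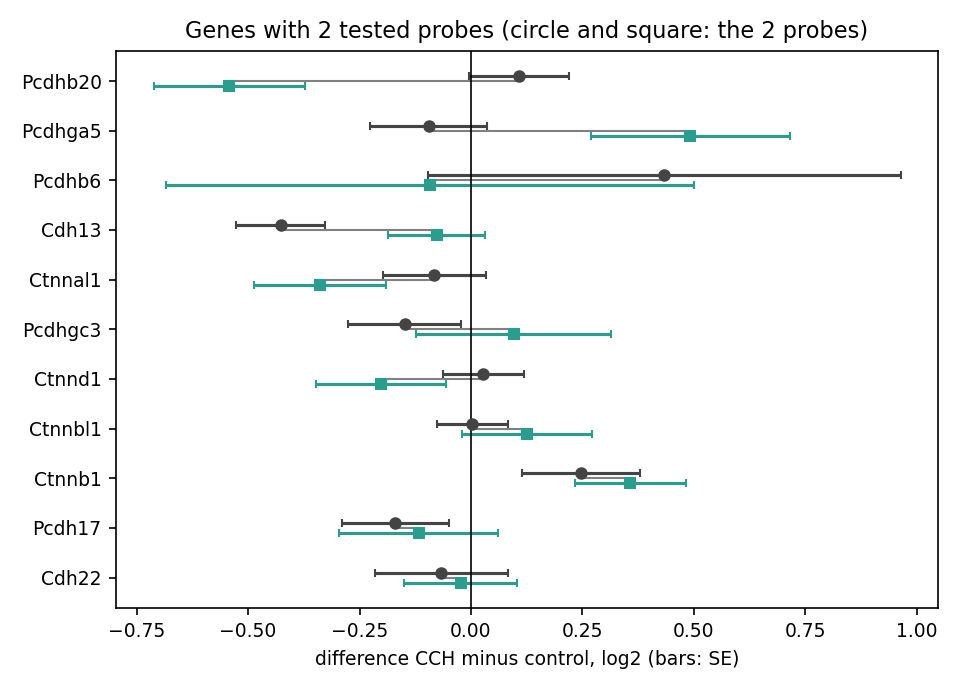
Difference CCH minus control in log2 (horizontal axis, bars give the SE) for the 11 member genes with 2 tested probes, circle and square standing for the probes, ordered by the gap between them. Cdh22 and Pcdh17 lie close together, with gaps of 0.044 and 0.053, and Pcdhb20 is widest at 0.65.

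Partners of these proteins outside the symbol rule were read from 6 lists, with the brightest probe for each gene. None of the 80 tested partner genes was called by limma, and 12 reached an unadjusted p under 0.05 (15.0%), 6 higher and 6 lower, against 15.4% of all tested probes. Other cadherin superfamily genes had 1 higher and 0 lower of 11 at that limit. They were led by Celsr3, a cadherin receptor of planar polarity, at 0.37 ± 0.12 (SE, limma adjusted p = 0.207), and the endothelial Cdh5 at -0.58 ± 0.30 (SE). Junction and actin linkers had 2 higher and 1 lower of 12, led by Nectin4 at 0.94 ± 0.31 (SE), whose other probe was at -0.0029, and afadin (Afdn) at -0.28 ± 0.10 (SE; -0.36 on its other probe). Proteases, kinases and phosphatases of cadherins had 1 higher and 2 lower of 13, with the phosphatase gene Ptpn1 at -0.29 ± 0.08 and the focal adhesion kinase gene Ptk2 at 0.36 ± 0.10 (SE). That Ptk2 probe passed with array weights (limma adjusted p = 0.0407), a fit that called 1339 probes. The other Ptk2 probes were at 0.088, 0.33 and -0.0087. Beta-catenin turnover and nuclear partners had 1 higher and 2 lower of 16, with Apc, the scaffold of the destruction complex, at -0.25 ± 0.11 (SE; 0.25 on its other probe). That list was led by Tcf4 at -0.47 ± 0.12 (SE, limma adjusted p = 0.121), the gene of an E-box factor and not of the Wnt effector that shares the name. Tcf4 is nonetheless 1 of the 2 lower genes counted in that list. Genes for the choice of clustered protocadherin promoters had 1 higher and 0 lower of 6, with the cohesin subunit gene Rad21 at 0.24 ± 0.09 (SE; 0.24 and -0.0093 on its other probes) and the repressor gene Rest at -0.25 ± 0.19 (SE; -0.052 on its other probe). Protocadherin effectors had 0 higher and 1 lower of 22, with Wasf2, a WAVE complex subunit gene, at -0.36 ± 0.13 and the motor gene Kif5b at -0.16 ± 0.08 (SE; -0.10 and 0.068 on its other probes).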

How the data were processed

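Arrays were grouped by sample title and treatment label. Per the file headers and the submitters' processing notes, scans were read by the authors in Agilent's Feature Extraction software, version 9.5, which gave for every spot a linear intensity after background subtraction and detrending. The deposited value table is the same signal rounded (largest relative difference 0.00498). Probes were named through RefSeq accessions of GRCr8 (15184 of 41012). That signal was taken to log2, each array's own 75th percentile (from 43379 spots that are not controls) was subtracted, and spots of 1 probe were averaged, leaving out those marked as outliers (55 to 122 per array). Saturated spots numbered 0. Of the spots 33091 to 34643 passed as well above background on an array, and the number of arrays limits precision.

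Probes well above background on at least 4 of 8 arrays, with 3 values per group, were tested with limma 3.58.1 in R 4.3.3 (lmFit, eBayes, two-sided, Benjamini-Hochberg over 31617 probes, threshold 0.05). Each array is 1 rat. Array scores used exact permutation over 35 splits. The fit was run on simulated data with noise independent between probes, so effects shared by many probes of an array were not part of that check. Members and lists were chosen with earlier results of these data known. Genes were named by a rule that took called members, the 10 genes with the smallest p per direction, a fixed set, and 2 genes per partner list. Of the fixed set, Cdh9, Cdh10, Cdh11, Ctnnd2, Pcdh9, Pcdh10, Pcdh15 and Pcdh19 had no named probe, so nothing is known of them here. Normexp, with an offset of 50, used the median spot signal, since the planned mean signal is not a column used here. Other alternatives were 3 other scalings, 2 other detection filters, outlier spots kept, a replicate block, trend and robust eBayes, array weights, a choroid covariate and arrays left out. A slide or scan block equals the diet term and was not run.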

Additional observations from a re-analysis of the deposited data

Results flagged for a closer look

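In 2 of 94 member probe groups of 4 arrays, 1 array stood apart by Dixon's ratio of the gap to the range, at its critical value for groups of this size. Chance marks about 1 in 20 groups, so this count is not unusual. Ctnna1 on CCH replicate 1 was at 2.78, with the nearest CCH array at 1.77 (ratio 0.884). Pcdhb9 on CCH replicate 1 was at -1.86, with the nearest CCH array at -1.18 (ratio 0.854), and its difference was 0.21 without that array.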

How the results depend on the processing

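Of the 31617 probes 55 were called by limma. The count was 246 with normexp, 29 without the detection filter, 209 with probes detected on all 8 arrays, 220 with trend and robust eBayes, 1339 with array weights, 0 without CCH replicates 2 and 4, 1 with the choroid covariate, and 0 to 708 with 1 array left out. Those 708 came without CCH replicate 1, and each other array left out gave 0 or 1. At an unadjusted limma p under 0.05 these fits with 0 calls held 9.9% of probes without CCH replicates 2 and 4 and 11.6% to 14.3% with 1 array left out. Members called lower numbered 0 with median scaling, without the filter, without CCH replicates 2 and 4 and with the choroid covariate, 2 with array weights (Pcdh7 and Cdh13), and 0 to 1 with 1 array left out. Members at an unadjusted p under 0.05 numbered 5 to 8 with 1 array left out, 8 without CCH replicate 1. No member was called higher in any of these fits. The cause of these shifts was not tested. The number of arrays and signals near background, as in Pcdhb6 and Pcdhga11, limit all values.

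With the replicate block limma called 0 probes (15.7% at an unadjusted p under 0.05) and 0 members lower, and Pcdh7 had an adjusted p of 0.172 (7 members at an unadjusted p under 0.05). Arrays with the same number also lay at the same position of their slides, so this block is a block for position too. Deviations of arrays with the same number correlated at 0.145, 0.080, -0.0052 and 0.246, and not every array correlated best with its own number. The labels do not pair the rats, and the part of slide position in these values was not tested. A block for slide or scan was not run, because each slide holds 1 group.

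The differences below changed sign, and none of them was called by limma as first fitted. For Pcdhga5 and Pcdhb6 the normexp values are of the probes first at 0.49 and 0.43. Without CCH replicates 2 and 4, and with the choroid covariate, the values are of their other probes, first at -0.095 and -0.092. The Pcdhga5 range with 1 array left out is also of that other probe. With normexp Cdh23 was at -0.055, Pcdhga9 at -0.070, Pcdhb3 at -0.036, Cdh16 at -0.13, Pcdh20 at -0.0077, Pcdhb21 at -0.081, Pcdhga5 at -0.14, Pcdhb6 at -0.20, Ctnnd1 at -0.090, Pcdhb4 at -0.042, Pcdhb20 at -0.0038, Pcdhga11 at -0.22, Pcdhgc3 at -0.055 and Pcdhb9 at -0.026. Ctnnbl1 was at -0.022 with quantile normalization, -0.0073 with median scaling and -0.012 with scaling to detected probes. With array weights Cdh23 was at -0.019, Ctnna1 at -0.059, Pcdhb5 at -0.063, Pcdhgc3 at -0.026 and Pcdh17 at 0.045. Without CCH replicates 2 and 4 Cdh19 was at 0.077, Pcdhga2 at 0.12, Pcdhga5 at 0.042, Pcdh20 at -0.10, Ctnnal1 at 0.078, Ctnna2 at -0.053, Ctnnd1 at -0.0028, Pcdhb20 at -0.0098, Pcdhb9 at -0.17, Cdh15 at 0.017 and Pcdhb6 at 0.70. With the choroid covariate Cdh19 was at 0.025, Pcdhga2 at 0.029, Pcdhga5 at 0.0010, Pcdh20 at -0.068, Ctnnal1 at 0.035, Ctnna2 at -0.026, Pcdhb9 at -0.12, Cdh15 at 0.044 and Pcdhb6 at 0.38. With 1 array left out the range was -0.12 to 0.077 for Cdh15, -0.12 to 0.064 for Cdh19, -0.19 to 0.032 and -0.12 to 0.044 for the probes of Cdh22, and -0.094 to 0.23 for Cdh23. It was -0.086 to 0.30 for Ctnna1, -0.015 to 0.13 for Ctnna2, -0.019 to 0.035 and -0.0064 to 0.20 for the probes of Ctnnbl1 and -0.013 to 0.087 for Ctnnd1. It was -0.21 to 0.041 for Pcdh17, -0.012 to 0.24 for Pcdh20, -0.15 to 0.011 for Pcdhb10, -0.11 to 0.23 for Pcdhb5 and -0.042 to 0.82 and -0.58 to 0.30 for the probes of Pcdhb6. It was -0.052 to 0.21 for Pcdhb9, -0.18 to 0.084 for Pcdhga2, -0.19 to 0.0037 for Pcdhga5 and -0.10 to 0.27 for Pcdhgc3.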
